A study of Mus musculus with 48 samples.

Results

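Aminoacyl-tRNA synthetase genes were followed through the day in the livers of Nono-/- and wild-type (WT) mice. The 36 members were chosen by gene symbol, with no use of their values. They are 20 synthetases of the cytosol and 16 of the mitochondrion, whose symbols end in 2, out of 24453 genes with exon values and 20771 with intron values. All 36 have exon values, and 35 have intron values, since Mars2 has no entry there. All mice were C57BL/6, 14 weeks old, and had been fed only in the dark phase for a week under 12 h of light and 12 h of dark. Total RNA and RNA of isolated nuclei came from the same livers of nono-/- and wild type animals. Collection covered 12 zeitgeber times (ZT, in hours, with lights on at ZT0) from ZT0 to ZT22, with 1 library per genotype, fraction and time, each from 2 pooled mice. This gave 12 Nono-/- total, 12 WT total, 12 Nono-/- nuclear and 12 WT nuclear libraries, 48 in all. The labels do not describe the Nono-/- allele, and both genotypes had the same feeding schedule.

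Each synthetase joins 1 amino acid to its tRNA, the step that sets which amino acid a codon is read as. Cytosolic enzymes serve ribosomes in the cytosol, while a separate set of nuclear genes encodes most of the enzymes that work on the small mitochondrial protein synthesis. Gars and Kars are known to make both forms, Eprs carries glutamyl and prolyl activities in 1 protein, and Farsa and Farsb are the subunits of 1 enzyme. Dars, Eprs, Iars, Kars, Lars, Mars, Qars and Rars belong to the multisynthetase complex of mammals. Several cytosolic synthetase genes are known targets of ATF4, the transcription factor of the response to amino acid shortage, and Nono is an RNA- and DNA-binding protein of nuclear paraspeckles that also binds clock proteins.

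Depth, worked out from the steps that whole reads leave in the values, was 9.91 to 28.9 M reads per library. Nono exons lay between 0 and 0.091 FPKM (fragments normalised to gene length and to mapped reads) in Nono-/- total RNA, with 8 of 12 libraries at 0, and between 8.742 and 10.743 FPKM in WT total RNA. Introns took 18.5 ± 2.41% of the reads in Nono-/- total RNA and 22.1 ± 1.72% in WT total RNA (SD, n = 12 each), and 74.6 ± 1.16% in Nono-/- nuclear RNA and 73.2 ± 2.14% in WT nuclear RNA. Exon shares were lowest in the ZT10 library of Nono-/- total RNA (63.2%) and the ZT8 library of WT total RNA (64.3%). Of the 36 members, 22 had their lowest deposited exon value of the group in that Nono-/- library, against 26.5% of all genes tested, and 17 had theirs in that WT library, against 31.4% of all genes tested. In Nono-/- nuclear RNA 26 of the 36 members were lowest at ZT2, where 44.2% of genes were. All hepatocyte markers were present, with summed exon levels of 38665 to 52602 FPKM in Nono-/- total RNA and 32740 to 51535 FPKM in WT total RNA.

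Cytosolic synthetase transcripts were several times as abundant as mitochondrial ones. Summed over the 20 cytosolic genes, total RNA held 381 ± 45.2 FPKM in Nono-/- livers and 365 ± 32.2 FPKM in WT livers (SD, n = 12 each). The 16 mitochondrial genes together held 82.5 ± 6.05 FPKM in Nono-/- livers and 81.6 ± 7.55 FPKM in WT livers. Within each set the genes spread widely, as the plot of levels by gene shows. Tars, for threonine, was the highest of all, with 47.8 ± 19.4 FPKM in Nono-/- livers and 45.8 ± 17.1 FPKM in WT livers. Aars (alanine), Eprs, Dars (aspartate) and Nars (asparagine) followed, with means between 38.7 and 45.3 FPKM in Nono-/- livers and between 36.9 and 44.1 FPKM in WT livers, and their ranges over the day overlapped. Vars, for valine, was the lowest cytosolic member at 1.58 ± 0.50 FPKM in Nono-/- livers and 2.14 ± 1.09 FPKM in WT livers. Among mitochondrial members Iars2 (isoleucine) was highest, at 18.2 ± 1.28 FPKM in Nono-/- livers and 17.004 ± 1.33 FPKM in WT livers, and Pars2 (proline) lowest, at 0.964 ± 0.350 FPKM in Nono-/- livers and 0.718 ± 0.220 FPKM in WT livers.

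**Figure D1:**
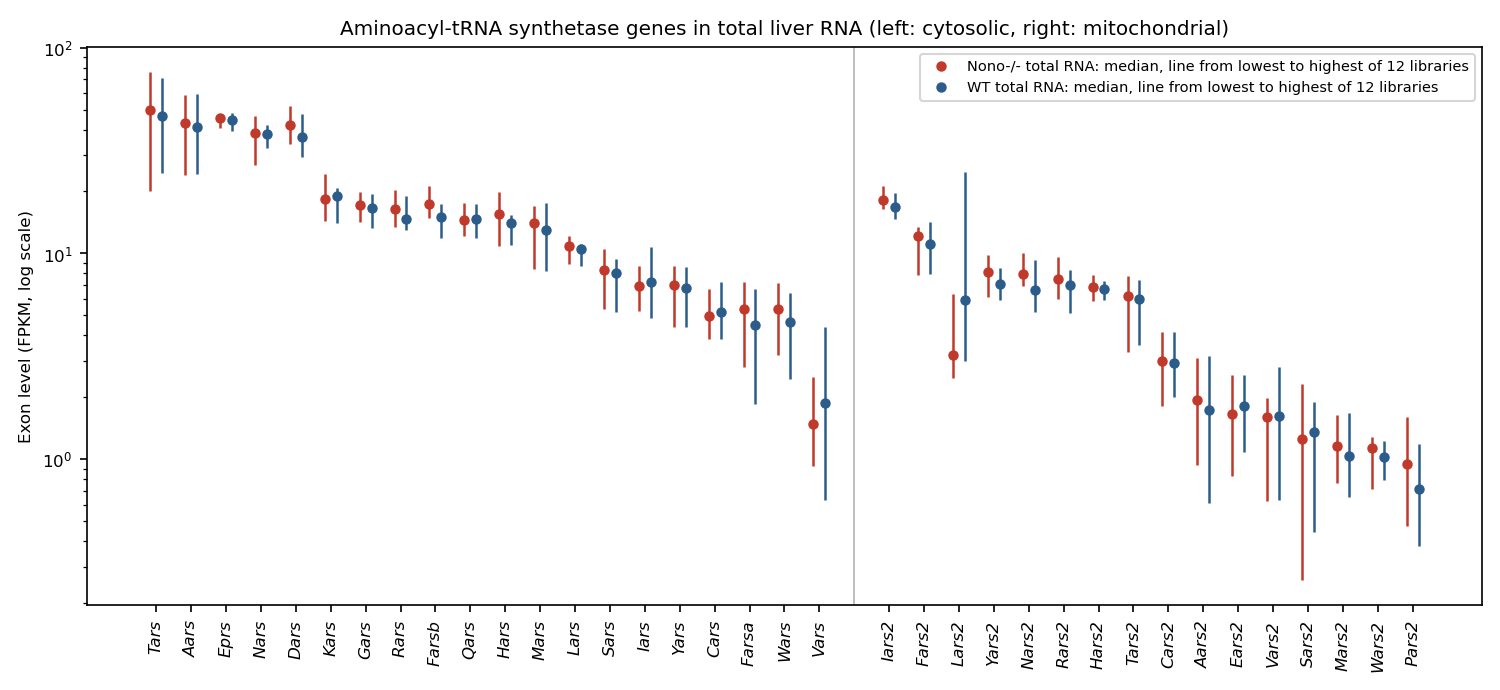
Exon level in total RNA (FPKM, log scale) of each synthetase gene, cytosolic on the left and mitochondrial on the right, ordered by the WT mean; points are medians and lines run from the lowest to the highest of 12 libraries, Nono-/- in red and WT in blue. The cytosolic genes run down to Vars and the mitochondrial ones from Iars2 down to Pars2, and Lars2 reaches 24.97 FPKM in 1 WT library.

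Enzymes for the same amino acid were not at one ratio. Aars exceeded Aars2 23.7 times in Nono-/- total RNA and 24.1 times in WT total RNA, and Eprs exceeded Ears2, the mitochondrial glutamate enzyme, 27.5 times in Nono-/- livers and 25.2 times in WT livers. For isoleucine and for 1 of the 2 phenylalanine subunits the order was turned round. Iars was at 0.376 of the level of Iars2 in Nono-/- livers and at 0.463 in WT livers, and Farsa was at 0.441 of the level of Fars2 in Nono-/- livers and at 0.445 in WT livers. The other subunit, Farsb, averaged 17.4 FPKM in Nono-/- livers and 14.9 FPKM in WT livers, above Fars2 at 11.6 FPKM in Nono-/- livers and 10.9 FPKM in WT livers. Tyrosine enzymes were close, with Yars at 0.827 of Yars2 in Nono-/- livers and 0.939 in WT livers. These levels are on the FPKM scale, which divides by gene length.

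Cytosolic synthetase transcripts were also poorer in nuclear RNA than most genes. The nuclear minus total difference of log2 exon level, set to 0 for the median of 9871 genes, had a median of -0.93 over the 20 cytosolic genes in Nono-/- livers and -0.62 in WT livers, with 19 of 20 below 0 in Nono-/- livers and 17 of 20 in WT livers. Over the 14 mitochondrial genes with enough nuclear signal the median was 0.10 in Nono-/- livers and 0.27 in WT livers, with 9 of 14 above 0 in each. Kars, for lysine, was the lowest member, at -2.48 ± 0.43 in Nono-/- livers and -2.24 ± 0.26 in WT livers on this log2 scale (SD, n = 12 each). Only 5.98% of genes in Nono-/- livers and 5.59% in WT livers lay below it. Its exons averaged 1.24 FPKM in nuclear RNA and 19.2 FPKM in total RNA of Nono-/- livers, and 1.65 FPKM in nuclear RNA and 18.6 FPKM in total RNA of WT livers. At the other end stood Wars2, for mitochondrial tryptophan, at 0.93 ± 0.31 in Nono-/- livers and 0.91 ± 0.13 in WT livers. Rars2 and Nars2 were also above the median gene in each genotype, while the cytosolic exceptions were Cars in both genotypes and Farsa and Vars in WT livers.

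**Figure D2:**
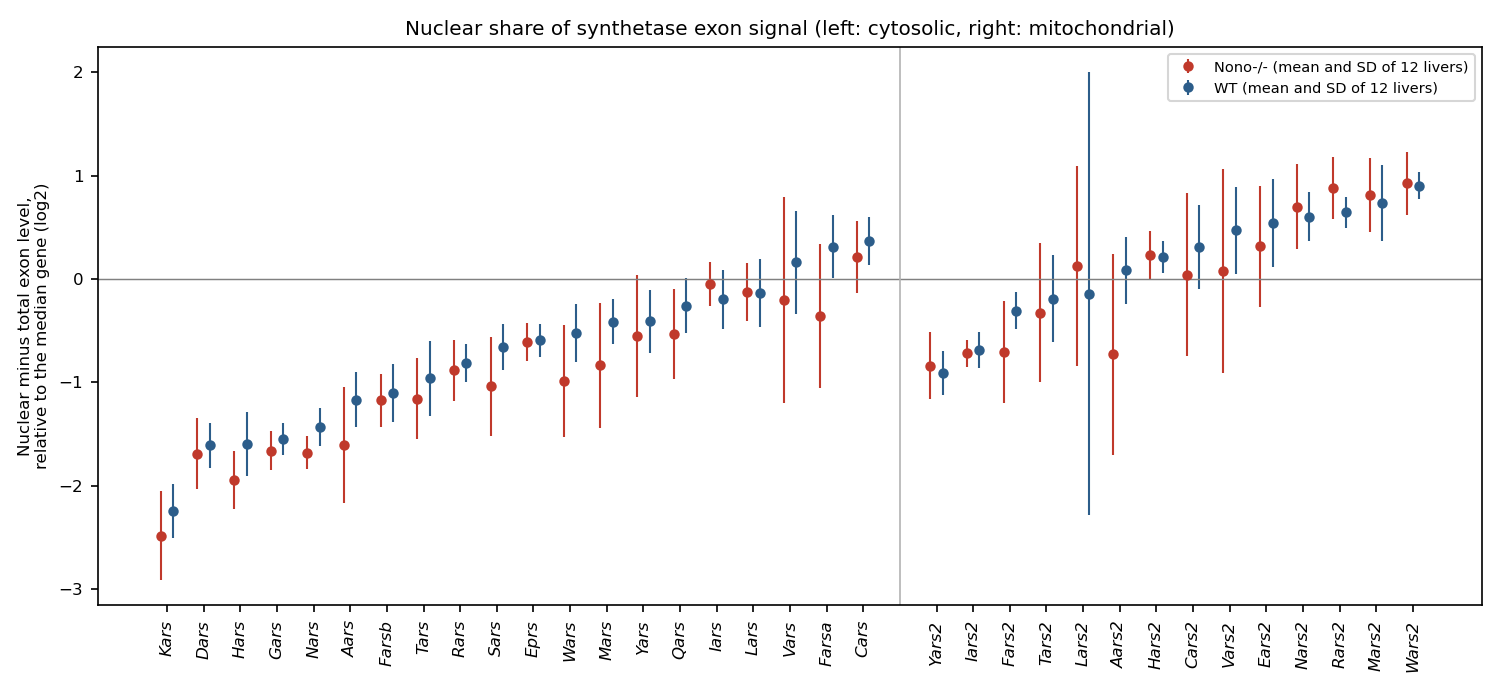
Nuclear minus total exon level (log2, with the median gene at 0) of 34 synthetase genes, cytosolic on the left and mitochondrial on the right, as mean and SD of 12 pools of livers, Nono-/- in red and WT in blue. Most cytosolic genes lie below 0, Kars lowest at -2.48 in Nono-/- livers and -2.24 in WT livers, and the SD of Lars2 is wide in WT livers.

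A daily rhythm was tested as a 24 h cosine curve in each genotype with limma, over the 11352 genes that averaged 0.5 FPKM or more, a level all 36 members reached. At a Benjamini-Hochberg adjusted p under 0.05, 14 of the 36 members were rhythmic in Nono-/- total exons, where 29.6% of all genes were, and 14 in WT total exons, where 31.8% of all genes were. In both genotypes 11 of the 36 members were called, as were 1962 of the 11352 genes. The 11 were Aars, Cars, Farsa, Iars, Mars, Tars, Wars and Yars of the cytosol, and Ears2, Mars2 and Tars2 of the mitochondrion. Of the 12 cytosolic enzymes outside the multisynthetase complex 9 were called in Nono-/- livers and 7 in WT livers. Of the 8 complex members 2 were called in Nono-/- livers and 3 in WT livers. Of the 16 mitochondrial members 3 were called in Nono-/- livers and 4 in WT livers. The median fitted peak-to-trough change over the 20 cytosolic genes was 0.38 on the log2 scale in Nono-/- livers, beside 0.45 for all genes tested, and 0.35 in WT livers, beside 0.47 for all genes tested. Most of the members called peaked late in the dark phase. In Nono-/- livers 9 of 14 peaked between ZT16 and ZT24, where 27.9% of all rhythmic genes did, and 5 between ZT0 and ZT6, where 23.3% did. In WT livers 11 of 14 peaked between ZT16 and ZT24, where 43.3% of all rhythmic genes did, and 2 between ZT0 and ZT6, where 16.3% did.

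Tars, on chromosome 15 (mm10, 11383663 to 11399658, minus strand), had the strongest rhythm of the members. Its exon level over the day had a lowest value of 20.2, a median of 49.9 and a highest value of 75.8 FPKM in Nono-/- total RNA, and 24.5, 46.3 and 71.3 FPKM in WT total RNA. In both genotypes the highest library was ZT2 and the lowest ZT10. The fitted peak-to-trough fold was 3.10 in Nono-/- livers (limma adjusted p = 1.43e-07) and 2.84 in WT livers (limma adjusted p = 4.03e-07), with fitted peaks at ZT0.77 in Nono-/- livers and ZT23.76 in WT livers. Leaving out any 1 time point ended neither call.

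Iars, the cytosolic isoleucine enzyme of the multisynthetase complex (chromosome 13, 49682130 to 49734267, plus strand), was at 5.23, 6.94 and 8.68 FPKM (lowest, median and highest) in Nono-/- total RNA and at 4.85, 7.24 and 10.8 FPKM in WT total RNA. The fitted fold was 1.56 in Nono-/- livers with a peak at ZT18.14 (limma adjusted p = 0.000649) and 1.93 in WT livers with a peak at ZT18.91 (limma adjusted p = 7.49e-06). It was the one member that passed the dark against light test in total exons in both genotypes. Its 6 dark libraries ran from 7.08 to 8.68 FPKM and its 6 light libraries from 5.23 to 6.80 FPKM in Nono-/- livers, with no overlap. In WT livers they ran from 7.50 to 10.8 FPKM in the dark and from 4.85 to 6.99 FPKM in the light, again with no overlap.

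Aars (chromosome 8, 111033842 to 111055569, plus strand) was high late in the night in both genotypes. Its highest libraries were ZT18 at 58.9 FPKM in Nono-/- livers and ZT20 at 59.3 FPKM in WT livers, and its lowest were ZT10 at 24.1 FPKM in Nono-/- livers and ZT8 at 24.2 FPKM in WT livers. These lowest libraries are the ones with the lowest exon share of their groups, and limma's adjusted p was 0.0753 in Nono-/- livers with ZT10 left out and 0.0515 in WT livers with ZT8 left out, against 0.0153 in Nono-/- livers and 0.00649 in WT livers with all times. Farsa, a phenylalanine enzyme subunit, had fitted folds of 1.77 in Nono-/- livers and 1.87 in WT livers and the same lowest libraries. Ears2 was the mitochondrial member of largest fold among those called in both, at 1.90 in Nono-/- livers and 1.95 in WT livers, with peaks at ZT22.53 in Nono-/- livers and ZT21.25 in WT livers. Its calls held in every leave-one-out fit, as did those of Cars, Iars, Tars and Tars2. Cars, for cysteine, was early: it peaked at ZT4.31 in Nono-/- livers and ZT4.74 in WT livers, with folds of 1.47 in each.

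**Figure D3:**
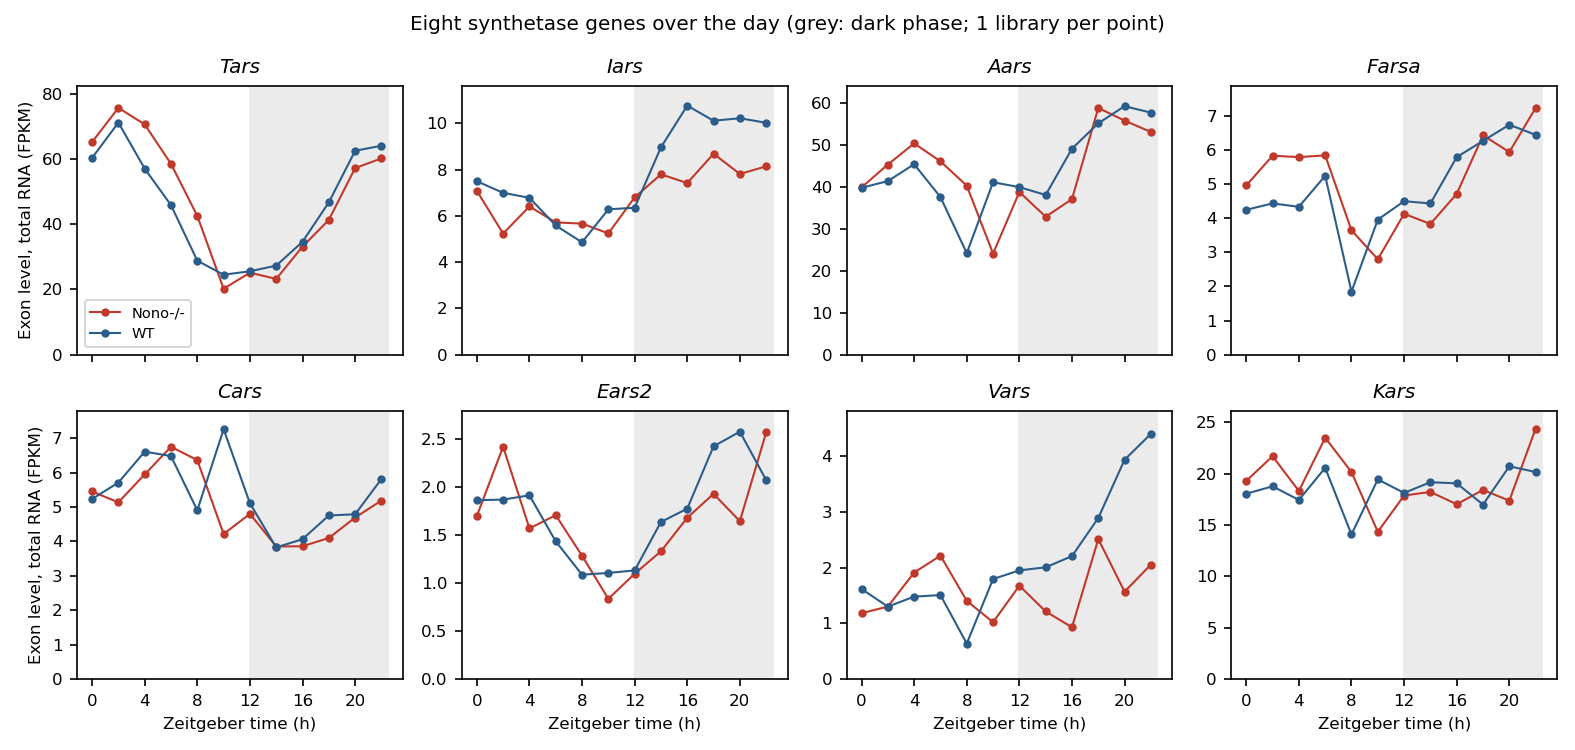
Exon level in total RNA (FPKM, linear axes from 0) of 8 synthetase genes against zeitgeber time (h), 1 library per point, Nono-/- in red and WT in blue, with the dark phase in grey. Tars falls to 20.2 FPKM at ZT10 in Nono-/- livers and 24.5 FPKM at ZT10 in WT livers, Vars reaches 4.40 FPKM at ZT22 in WT livers, and Aars, Farsa and Kars dip at ZT10 in Nono-/- livers and ZT8 in WT livers.

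Several calls were made in 1 genotype. Hars, Nars and Sars were called in Nono-/- livers, and Dars, Nars2 and Vars in WT livers. Leaving out 1 time point ended the call of Nars for 10 of the 12 times (highest adjusted p = 0.175), of Nars2 for 6, and of Sars and Dars for 4 each, and never that of Hars or Vars. Vars had a lowest value of 0.93, a median of 1.49 and a highest value of 2.51 FPKM in Nono-/- total RNA, and of 0.637, 1.87 and 4.40 FPKM in WT total RNA. In WT livers its fitted fold was 2.83 with a peak at ZT19.06 (limma adjusted p = 0.00264), and in Nono-/- livers the fitted fold was 1.21 (limma adjusted p = 0.734). The difference between those rhythms did not pass (limma, unadjusted p = 0.0104, adjusted p = 0.463), although it had the lowest unadjusted p of the 36 members. At an unadjusted p under 0.05, 2 members and 10.7% of all genes differed in rhythm, and 0% of all genes passed after adjustment. In nuclear introns 1 of 35 members and 6.73% of all genes differed at that unadjusted level, and again none passed in limma.

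Fitted peaks in total exons were later in Nono-/- livers for 9 of the 11 members called in both genotypes, with a median shift of 1.28 h. Over the 1962 genes called in both, 76% peaked later in Nono-/- livers and the median shift was 1.15 h, so the members' shift was near that of rhythmic genes as a whole. The largest shift of the 11 was that of Mars, for methionine, at 4.55 h, and Mars2 shifted by 0.05 h. In nuclear introns 1 of the 2 members called in both genotypes peaked later in Nono-/- nuclei. The median shift there was -0.142 h, beside 0.734 h over all genes called in both. The total libraries of lowest exon share were ZT10 in Nono-/- livers and ZT8 in WT livers, and their part in the shift was not tested. With the exon share of the library in the fit, 7 of the 14 Nono-/- calls were left, without Aars, Farsa, Mars, Nars, Wars, Yars and Tars2. Without the pair of libraries of lowest exon share, 9 of the 14 WT calls were left, without Dars, Mars, Wars, Yars and Nars2.

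**Figure D4:**
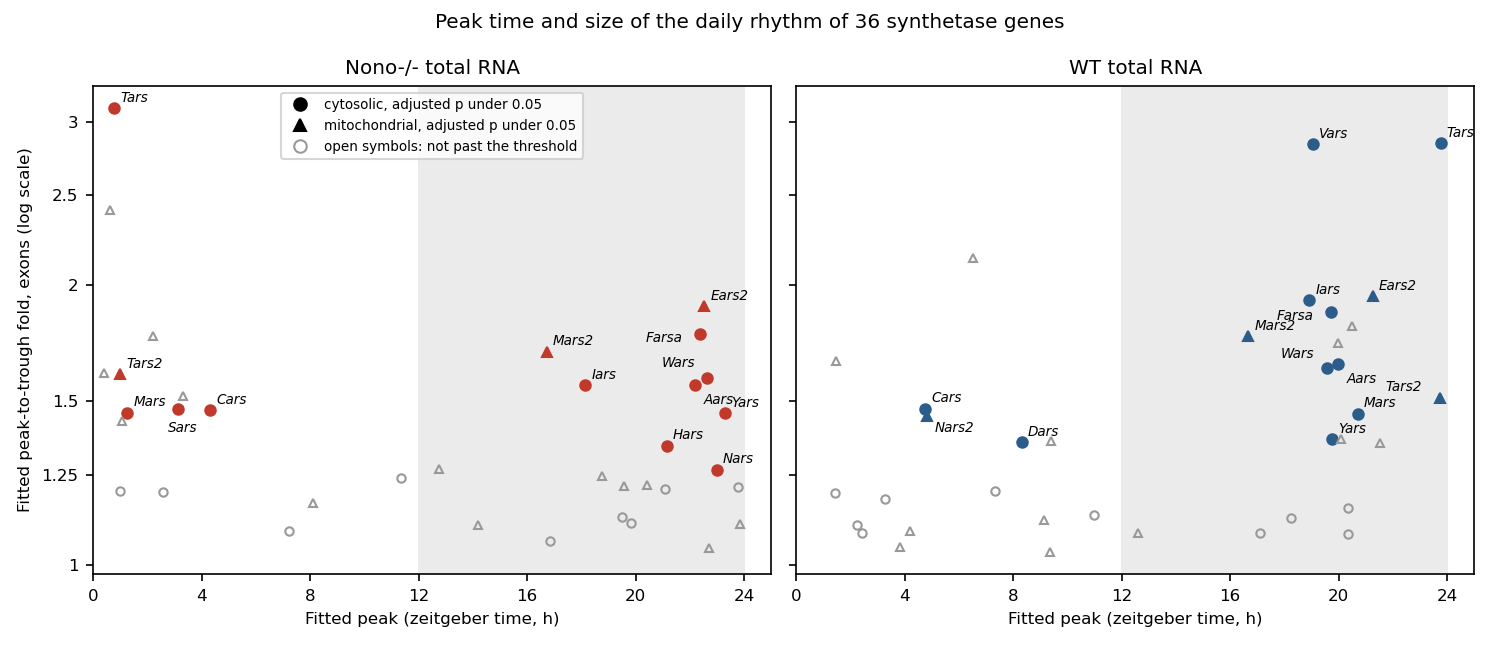
Fitted peak-to-trough fold of the exon level in total RNA (log scale) against fitted peak time (zeitgeber time, h) for the 36 synthetase genes in Nono-/- livers (left) and WT livers (right); filled symbols are members with a limma adjusted p under 0.05, circles are cytosolic and triangles mitochondrial. Tars stands highest in each panel, with Vars beside it in the WT panel, and most filled symbols lie late in the dark phase.

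Promoter windows were looked up for the members, of which 11 were called rhythmic in total exons of both genotypes, as were 1962 of 11352 genes. RefSeq windows of 300 bases across the gene start (GRCm38.p6, the release of mm10) were found for 27 of the 36 members, 13 of them cytosolic. Cars, Hars, Lars, Nars, Rars, Vars, Wars, Hars2 and Pars2 had none. The C/EBP-ATF response element, through which ATF4 acts, was searched as TGATGNAA on both strands. It occurred in 5 of the 27 members (Aars, Gars, Iars, Tars and Yars, all cytosolic) and in 3.97% of all 32851 windows. The E-box CACGTG, the site of the clock factors CLOCK and BMAL1, which reads the same on both strands, occurred in Aars, Ears2, Farsb, Iars and Tars and in 7.15% of all windows. Farsa, Mars, Mars2 and Tars2, also called rhythmic in both genotypes, held neither the response element nor the E-box. Gars held the response element and Farsb the E-box, and neither gene was called rhythmic in total exons. No member held the cAMP response element TGACGTCA (1.79% of all windows) or the D-box as TTATGTAA or TTACGTAA (1.06% of all windows). CCAAT boxes (CCAAT) occurred in 13 of the 27 members and in 37.4% of all windows. The NRF1 site occurred in Farsb, Iars2, Kars, Mars2 and Tars and in 4.6% of all windows. Tars, Iars and Aars held both the response element and the E-box, and their windows are printed 5′ to 3′ on the strand of the gene with those letters in capitals.
Tars, chr15:11399609-11399908, minus strand: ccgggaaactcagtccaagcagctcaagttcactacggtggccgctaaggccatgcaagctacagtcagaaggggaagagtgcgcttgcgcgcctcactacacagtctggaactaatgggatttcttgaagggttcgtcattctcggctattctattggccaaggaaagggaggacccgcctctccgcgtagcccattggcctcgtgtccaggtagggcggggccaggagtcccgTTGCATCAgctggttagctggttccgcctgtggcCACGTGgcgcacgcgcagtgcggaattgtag
Iars, chr13:49681880-49682179, plus strand: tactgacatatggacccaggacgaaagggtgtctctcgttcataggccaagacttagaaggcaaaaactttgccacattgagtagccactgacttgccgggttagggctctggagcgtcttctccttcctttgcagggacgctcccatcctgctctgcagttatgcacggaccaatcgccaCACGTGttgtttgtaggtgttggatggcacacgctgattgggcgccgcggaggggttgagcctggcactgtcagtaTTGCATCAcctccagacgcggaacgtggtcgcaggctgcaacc
Aars, chr8:111033592-111033891, plus strand: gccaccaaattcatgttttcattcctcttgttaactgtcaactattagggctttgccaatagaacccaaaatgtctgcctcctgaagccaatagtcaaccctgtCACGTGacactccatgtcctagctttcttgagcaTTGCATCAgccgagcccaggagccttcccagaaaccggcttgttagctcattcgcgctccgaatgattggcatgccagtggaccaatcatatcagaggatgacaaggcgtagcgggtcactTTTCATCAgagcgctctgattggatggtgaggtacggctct
The capitals TTGCATCA and TTTCATCA are response elements read on the opposite strand, and CACGTG is the E-box. In Tars the element lies 15 bases before the gene start, and in Iars the E-box lies 69 bases before it. In Aars the E-box lies 146 bases and the first element 112 bases before the start. These letters are matches in a window and not measured binding.

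Nuclear introns, which stand closer to transcription than exons do, were rhythmic for few members. Of 35 members tested, 6 were called in Nono-/- nuclear introns, where 32% of all genes were, and 2 in WT nuclear introns, where 21% of all genes were. Tars and Fars2 were called in both, as were 1630 of the 12055 genes tested, and Ears2, Iars, Nars2 and Yars2 in Nono-/- nuclei only. Leaving out 1 time point ended the Nono-/- call of Iars for 9 of the 12 times and of Ears2 and Nars2 for 3 each. The WT call of Fars2 ended without ZT8 (limma adjusted p = 0.0509). Both calls of Tars and the Nono-/- calls of Fars2 and Yars2 held at every time left out. Tars introns ran at 1.13, 2.62 and 4.32 FPKM (lowest, median and highest) in Nono-/- nuclei and at 1.43, 3.09 and 4.73 FPKM in WT nuclei. The lowest library was ZT8 and the highest ZT20 in both. The fitted fold was 3.27 in Nono-/- nuclei with a peak at ZT21.5 (limma adjusted p = 2.74e-06) and 2.71 in WT nuclei with a peak at ZT20.68 (limma adjusted p = 1.26e-05). Exons of Tars in total RNA peaked 3.27 h after its nuclear introns in Nono-/- livers and 3.07 h after them in WT livers. Fars2, the mitochondrial phenylalanine enzyme, ran the other way in the nucleus, with intron peaks at ZT4.66 in Nono-/- nuclei and ZT5.76 in WT nuclei and folds of 1.47 in Nono-/- nuclei and 1.36 in WT nuclei. Its total exons were not called in either genotype, with fitted folds of 1.11 in Nono-/- livers and 1.08 in WT livers.

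Dark and light parts of the day, with food in the dark (ZT14 to ZT0 against ZT2 to ZT12), were also compared in nuclear introns, where 17.1% of all genes passed in Nono-/- nuclei and 17.4% in WT nuclei. In Nono-/- nuclear introns 10 of 35 members were higher in the dark, where 8.27% of all genes were: Aars, Farsb, Gars, Iars, Lars, Mars, Nars and Tars of the cytosol, and Ears2 and Yars2 of the mitochondrion. In WT nuclear introns 5 were, where 8.47% of all genes were: Farsb, Lars, Tars, Cars2 and Rars2. Many of these calls were close to the threshold: leaving out 1 of the 12 time points ended those in Nono-/- nuclei for Farsb at 10 times, Nars at 9, Mars and Tars at 8 each, Gars at 5 and Yars2 at 1. Those in WT nuclei ended for Lars at 7 times, Tars at 5 and Cars2 at 2. The calls of Aars, Iars, Lars and Ears2 in Nono-/- nuclei and of Farsb and Rars2 in WT nuclei held at every time left out. Fars2 was lower in the dark in both genotypes, as were 8.83% of all genes in Nono-/- and 8.9% in WT nuclei. The Fars2 call held at every time left out in Nono-/- nuclei and ended for 3 times in WT nuclei (limma, highest adjusted p = 0.0712). With ZT0 and ZT12 both left out, the calls of Lars, Tars and Rars2 in WT nuclei ended. Those of Farsb, Nars and Tars in Nono-/- nuclei ended as well. The median dark minus light difference over the 20 cytosolic genes was 0.22 on the log2 scale in Nono-/- nuclei and 0.14 in WT nuclei, beside 0.01 for all genes tested in each. Its sign was positive for 18 of 20 in Nono-/- nuclei and 15 of 20 in WT nuclei. The largest difference was that of Ears2 in Nono-/- nuclei, with 0.415, 0.796 and 1.17 FPKM in the dark and 0.299, 0.346 and 0.482 FPKM in the light (lowest, median and highest of 6), a log2 difference of 0.93 ± 0.18 (SE, limma adjusted p = 0.00129). Dark and light overlapped in 1 or more libraries there. In total exons 2 of 36 members passed in Nono-/- livers (Hars and Iars), where 5.35% of all genes did, and both were higher in the dark, where 3% of all genes were. In WT livers 4 passed (Iars, Vars, Wars and Mars2), where 12.3% of all genes did, and all 4 were higher in the dark, where 6.3% of all genes were. Lower in the dark were 2.34% of all genes in Nono-/- livers and 5.96% in WT livers. Hars missed the threshold when any of 11 time points was left out (highest adjusted p = 0.0994), and Wars when any of 8 was (highest adjusted p = 0.135). None of the dark minus light differences of members, nor of any other gene, differed between genotypes after adjustment in limma; at an unadjusted p under 0.05, 2 members and 8.47% of all genes did in total exons, and 1 member and 4.71% of all genes in nuclear introns.

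Nono-/- livers and WT livers differed little in total synthetase RNA. In total exons 3 of 36 members passed for genotype over the day with limma, where 11.1% of all genes did. Farsb, the partner subunit of Farsa, was higher in Nono-/- livers, as were 4.49% of all genes, and Iars and Lars2 were lower, as were 6.57% of all genes. Farsb was at 14.8, 17.3 and 21.3 FPKM in Nono-/- total RNA and at 11.9, 15.0 and 17.5 FPKM in WT total RNA (lowest, median and highest), a log2 difference of 0.20 ± 0.06 (SE, limma adjusted p = 0.0416), and was higher in 11 of 12 time points. Iars fell by 0.20 on the log2 scale (SE 0.05, limma adjusted p = 0.0211) and was lower in 11 of 12 time points after scaling and in 9 of 12 as deposited. For both genes the groups overlapped. Each change was 1.15-fold in size. Over the 36 members the median size of the difference in total exons was 0.07 on the log2 scale, and 21 of 36 were positive. Farsb missed the threshold when any of 10 time points was left out (highest adjusted p = 0.0980), and Iars when ZT2 or ZT16 was (highest adjusted p = 0.0659). With the intron share of the library in the fit, 0 of 36 members were called in total exons in limma, where 8 had an unadjusted p under 0.05 (26.3% of all genes) without it.

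Nuclear exons held more genotype differences than total exons over all genes, of which 11.1% had passed in total exons, and also among members. In nuclear exons 9 of 34 members passed, where 34.3% of all genes did. Of the 9, 1 was higher and 8 were lower in Nono-/- nuclei, where 15.9% of all genes were higher and 18.5% lower. Lower were Aars, Farsa, Mars, Nars, Sars and Vars of the cytosol, and Aars2 and Vars2 of the mitochondrion. Rars2, for mitochondrial arginine, was higher. Over the cytosolic genes the median difference was -0.22 on the log2 scale, beside 0.00 for all genes tested, and 5 of 20 were positive. Farsa had 0.438, 1.37 and 2.69 FPKM in Nono-/- nuclei and 1.195, 2.66 and 4.40 FPKM in WT nuclei, and fell by 0.61 on the log2 scale (SE 0.15, limma adjusted p = 0.00731). Aars had 1.89, 4.93 and 9.60 FPKM in Nono-/- nuclei and 5.87, 7.98 and 12.2 FPKM in WT nuclei, and fell by 0.48 (SE 0.12, limma adjusted p = 0.00631). After scaling Farsa was lower in 12 of 12 time points and Aars in 10 of 12, and as deposited each was lower in 10 of 12, although the ranges over the day overlapped. Aars2, the mitochondrial alanine enzyme, fell most, by 0.80 (SE 0.22, limma adjusted p = 0.0112), with 0.042, 0.405 and 0.630 FPKM in Nono-/- nuclei and 0.333, 0.805 and 1.64 FPKM in WT nuclei. Its lowest values rest on 4 reads in a Nono-/- nuclear library and 24 reads in a WT nuclear library. In Nono-/- nuclei the lowest values of Farsa, Aars and Aars2 all came from ZT2, the library of lowest exon share in that group (14.3%). There 44.2% of all genes tested had their lowest value. Rars2 was at 4.36, 4.75 and 6.23 FPKM in Nono-/- nuclei and at 3.37, 4.61 and 6.12 FPKM in WT nuclei, a log2 difference of 0.39 ± 0.10 (SE, limma adjusted p = 0.00930). FPKM values are as deposited and log2 differences are after scaling; the median gene as deposited differed by -0.198 (log2) in nuclear exons. Without scaling, 0 members were higher and 15 lower. With the exon share of the library in the fit 0 were higher and 0 lower, with its intron share 0 were higher and 1 was lower, and with the time point as a block 2 were higher and 12 lower.

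**Figure D5:**
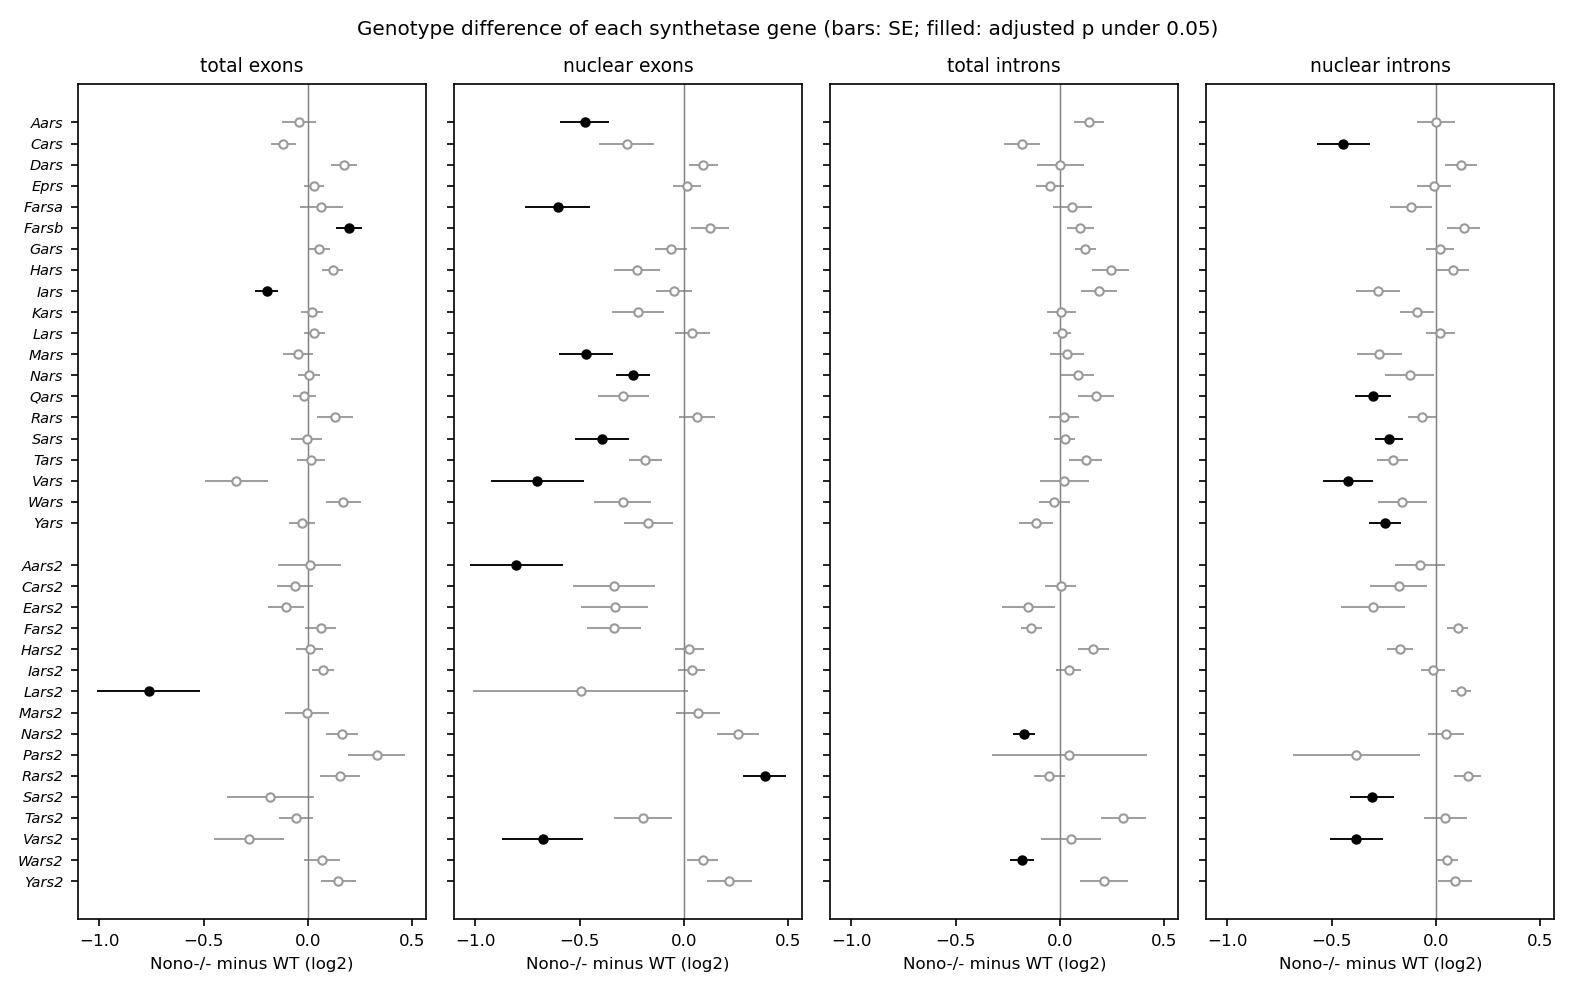
Nono-/- minus WT difference (log2, with SE bars) of each synthetase gene in the exons and introns of both fractions, cytosolic genes above and mitochondrial genes below; filled points have a limma adjusted p under 0.05. The filled points of nuclear exons lie left of 0 except that of Rars2 at 0.39, and those of both intron panels lie left of 0.

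In introns each member that passed was lower in Nono-/- livers. In nuclear introns 7 of 35 members passed, where 17.9% of all genes did, and all 7 were lower in Nono-/- nuclei (Cars, Qars, Sars, Vars, Yars, Sars2 and Vars2), where 9.46% of all genes were lower and 8.48% higher. Cars introns were at 0.324, 0.594 and 1.08 FPKM in Nono-/- nuclei and at 0.590, 0.807 and 1.52 FPKM in WT nuclei, and fell by 0.44 on the log2 scale (SE 0.13, limma adjusted p = 0.0215). Sars, Vars and Vars2 passed in nuclear exons as well. Leaving out 1 time point ended the nuclear intron call of Vars2 for 9 of the 12 times and of Sars2 for 8. It ended those of Sars and Yars for 5 times each, of Cars for 3, and of Qars and Vars for 2 each. Sars introns ran from 0.800 to 1.44 FPKM in Nono-/- nuclei and from 1.16 to 1.47 FPKM in WT nuclei, and fell by 0.23 (SE 0.07, limma adjusted p = 0.0240). In total introns 2 of 32 members passed, where 16% of all genes did, 7.11% higher and 8.87% lower: Nars2, which fell by 0.17 (SE 0.05, limma adjusted p = 0.0348), and Wars2, which fell by 0.18 (SE 0.06, limma adjusted p = 0.0349). Leaving out 1 time point ended the total intron call of Nars2 for 6 of the 12 times and of Wars2 for 8. With the intron share in the fit no member was lower in either intron table (0 in each, limma). With the time point as a block 1 was lower in total introns. Without scaling 11 were lower in total introns, where the median gene as deposited differed by -0.212 (log2). Yars and C77080, Mars and Ddit3, Iars2 and Rab3gap2, and Wars2 and Mir6481 overlap on opposite strands, and their reads cannot be told apart here, since strand use in counting is not stated.

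The nuclear to total ratio set both fractions of the same liver against each other. It was lower in Nono-/- livers for 8 of 34 members, where 9% of all genes were lower, and higher for 0 in limma, where 10.8% were higher; 19.8% of all genes passed in either direction. The 8 were Aars, Farsa, Hars, Mars, Nars, Sars and Wars of the cytosol and Aars2 of the mitochondrion, and 11 of the 34 had an unadjusted p under 0.05, as had 37.4% of all genes. The median over the cytosolic genes was -0.22 on the log2 scale, beside 0.02 for all genes tested, and -0.01 over the mitochondrial ones. Of the 12 cytosolic enzymes outside the multisynthetase complex 6 were lower and none of their 12 estimates was positive, and of the 8 complex members 1 was lower. Farsa fell most among the cytosolic genes, by 0.67 (SE 0.17, limma adjusted p = 0.0147): relative to the median gene its ratio was -0.35 ± 0.70 in Nono-/- livers and 0.32 ± 0.30 in WT livers (SD, n = 12 each). With the intron share of the total library in the fit 0 members were lower in limma, with the time point as a block 3 were, and without the pair of total libraries of lowest exon share 2 were. Leaving out 1 time point left between 1 and 9.

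Lars2, the mitochondrial leucine enzyme on chromosome 9 (123366940 to 123462664, plus strand), stood apart from the other members. Its exons were at 75.8 FPKM in the ZT2 library of WT nuclear RNA, where the other 11 libraries ran from 1.26 to 5.41 FPKM, and at 15.0 FPKM in the ZT10 library of Nono-/- nuclear RNA, where the median was 1.27 FPKM. In total RNA it reached 24.97 FPKM at ZT4 in WT livers. Over the day its total exons were at 2.48, 3.22 and 6.36 FPKM in Nono-/- livers and at 3.01, 5.91 and 24.97 FPKM in WT livers. Lars2 fell by 0.76 on the log2 scale in total exons (SE 0.25, limma adjusted p = 0.0489) and missed the threshold when any of 10 of the 12 time points was left out (highest adjusted p = 0.130). Its introns did not share the high libraries. They were between 0.362 and 0.461 FPKM in Nono-/- nuclei and between 0.329 and 0.449 FPKM in WT nuclei, and 0.390 FPKM in the WT library with 75.8 FPKM in exons. What gave these exon values was not tested.

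Other genes of the pathway showed few genotype differences in total exons. Of all genes, 11.1% passed there and 26.3% had an unadjusted p under 0.05 in limma. Counts of 0 in lists this short do not stand apart from those shares. None of the 3 scaffold proteins of the multisynthetase complex passed for genotype in total exons (limma; 2 of 3 at an unadjusted p under 0.05), and Eef1e1, one of them, had a fitted daily fold of 2.10 in Nono-/- total exons. Rhythms in total exons differed between genotypes for 0% of all genes after adjustment. None of the 5 cytosolic elongation factors passed in total exons in limma (0 at an unadjusted p under 0.05), while 3 of 5 were lower in Nono-/- nuclear exons, where 18.5% of all genes were, led by Eef2, which moves the ribosome along the mRNA and fell by 0.97 (SE 0.21). None of the 12 mitochondrial translation factors passed in total exons in limma (1 at an unadjusted p under 0.05). Of the 21 genes tested for tRNA maturation and editing, 2 were higher, where 4.49% of all genes were, and 0 lower in Nono-/- total exons. Among the 16 amino acid response targets of ATF4 that were tested, of 28 listed, 1 was higher and 1 lower in Nono-/- total exons. Of all genes 4.49% were higher and 6.57% lower. Asns, the asparagine synthetase, differed by 1.11 ± 0.32 (log2, SE), and Slc38a2, an amino acid transporter, fell by 0.40 (SE 0.10). In daily rhythm 8 of the 16 were called in Nono-/- total exons, where 29.6% of all genes were, and 9 in WT total exons, where 31.8% were. Trib3, an inhibitor of ATF4, had the largest fold of these, 5.69 in Nono-/- livers and 6.56 in WT livers. It was lower in the dark in both genotypes, by a log2 difference of -1.83 in Nono-/- livers and -2.15 in WT livers. Of the 8 eIF2 kinase and phosphatase genes 0 passed for genotype in total exons in limma, with 3 at an unadjusted p under 0.05, and 2 of 8 were rhythmic in each genotype, beside the same shares of all genes.

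Kupffer cell markers moved with genotype in the same libraries. In total exons 5 of 8 were higher in Nono-/- livers, where 4.49% of all genes were, and their summed level ran from 87.4 to 214 FPKM in Nono-/- livers and from 65.1 to 173 FPKM in WT livers. Of 6 stellate cell markers tested 1 was higher, with summed levels of 116 to 181 FPKM in Nono-/- livers and 118 to 165 FPKM in WT livers. None of the 8 endothelial, 2 cholangiocyte, 2 lymphocyte and 5 erythroid markers tested passed in limma (1, 0, 1 and 1 at an unadjusted p under 0.05). Their summed levels had medians of 99.99 FPKM in Nono-/- livers and 95.7 FPKM in WT livers for endothelial cells, and of 23.5 FPKM in Nono-/- livers and 26.0 FPKM in WT livers for cholangiocytes. For lymphocytes the medians were 5.83 FPKM in Nono-/- livers and 5.21 FPKM in WT livers, and for erythroid cells 59.1 FPKM in Nono-/- livers and 52.5 FPKM in WT livers. Of 10 hepatocyte markers 1 was lower, where 6.57% of all genes were. No marker of these lists was at 0 in every library. In nuclear exons 3 of the 4 nuclear RNAs tested were higher in Nono-/- nuclei, where 15.9% of all genes were. In bulk tissue, fewer cells of a type and less RNA per cell cannot be told apart, and the part of these markers in the synthetase differences was not tested.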

How the data were processed

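The values are FPKM over the exons or introns of each gene, computed by the authors with HOMER per the file headers; no strand option is written there, and for the HOMER version the sources used here name none. Per the submitters' processing notes, FastQC 0.11.2, STAR 2.4.0k and the build mm10 were used, and per the labels' protocols stranded libraries were made after removal of ribosomal RNA. Gene length, the other column used, is as deposited. Of the low values, 100% came out as whole reads within 0.1 read, which gave the depths.

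Computed here: libraries were scaled by the median over genes of the ratio to a geometric mean library, and log2(FPKM + 0.1) for exons or log2(FPKM + 0.05) for introns was fitted with limma 3.58.1 (trend) in R 4.3.3. This pseudocount understates changes of low genes. Genes averaging 0.5 FPKM (exons) or 0.1 FPKM (introns) over the 24 libraries of a fraction were kept. Terms were genotype, cosine and sine of 24 h, and their products; p-values were adjusted over all genes (Benjamini-Hochberg). Dark against light was fitted in a model without the curve, and the nuclear to total ratio as the log2 difference within a pool. With 1 library per time, p-values of the curve fits measure the spread between pools around the curve, including any misfit of that curve. In the dark against light model the spread also holds the daily trend within each phase. Both genotypes share 1 estimate of the spread in each fit. Scripts were tested on simulated data. Figures used Python 3.11.15 and matplotlib 3.10.9.

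The family, the lists and the motifs were chosen for study with earlier results of these data known; which genes belong to the family was set by symbol alone. All members could be named, with full statistics for those past an adjusted p of 0.05 and the largest of each set, and at most 4 genes per other list. Same-time libraries of both genotypes deviated together (correlations over 0.1 in 12 of 12 pairs in total exons, 11 of 12 in nuclear exons), which holds the shared rhythm; with the fitted curve removed, 9 of 12 (lowest -0.205) and 7 of 12 (lowest -0.157) were. Sample numbers in the file headers run in blocks by group and rise with zeitgeber time within each block. What the numbers stand for is not stated, so any order behind them cannot be told apart from group or time. No 2 of 1128 pairs of libraries were identical.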

Additional observations from a re-analysis of the deposited data

Results flagged for a closer look

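The nuclear to total exon ratio differed between genotypes for 8 synthetase genes by a test of the difference itself (limma, adjusted p under 0.05), with the log2 Nono-/- minus WT difference of the ratio below 0 in each. Farsa differed by -0.67 and Aars2 by -0.81. Aars differed by -0.43, Mars by -0.42 and Wars by -0.46. Hars differed by -0.35, Sars by -0.39 and Nars by -0.25. Farsa kept its call with any 1 time point left out (highest adjusted p = 0.0436), and Nars lost it for 10 of 12 time points. The intron share of total RNA was 18.5 ± 2.41% in Nono-/- livers and 22.1 ± 1.72% in WT livers (SD, n = 12 each), and its part in these differences was not tested beyond the fit with that share as a term, in which 0 members were called in limma.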

How the results depend on the processing

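Over the alternatives, 11536 of 12070 member values kept their side of the threshold, 415 lost the call and 117 gained one. Another 2 turned round, with a call in the main or the alternative fit. Values called in neither fit count as kept whatever their sign, and fitted rhythm sizes have no sign. The causes were not tested. Counts of members called, higher then lower in Nono-/-, were 1 and 2 in total exons, 1 and 8 in nuclear exons, 0 and 2 in total introns, 0 and 7 in nuclear introns and 0 and 8 in the nuclear to total ratio. Without scaling they were 2 and 0 in total exons, 0 and 15 in nuclear exons, and 11 lower in total introns, where Lars (-0.20) and Sars (-0.20) turned round. With upper quartile scaling 2 were higher in nuclear exons and 5 lower in the ratio. With a pseudocount 10 times larger 1 was lower in total exons. Without a filter on low values total exons gave 0 higher and 1 lower, and the ratio 2 lower. A filter 4 times stricter gave 0 lower in total introns, 4 in nuclear introns and 4 in the ratio. With the time point as a replicate block, 2 were higher in nuclear exons, 1 lower in total introns and 3 lower in the ratio; it changed no other of these counts by over 1.5 times. With the intron share in the fit, total exons gave 0 and 0, nuclear exons 0 and 1, and total introns, nuclear introns and the ratio 0 lower each. Chosen after seeing the data, the exon share in the fit gave 0 and 0 in nuclear exons, 0 lower in total and in nuclear introns, 1 lower in the ratio and 7 in place of 14 rhythmic members in Nono-/- total exons. Also chosen after seeing the data, leaving out the total libraries of lowest exon share gave 2 higher in total exons, 3 higher in total introns, 2 lower in the ratio and 9 in place of 14 rhythmic members in WT total exons. Of dark minus light, Nono-/- total exons had 2 higher and 0 lower, and 1 higher without scaling, with upper quartile scaling, with the stricter filter and without those libraries, which also gave 1 lower. WT total exons had 4 higher and 0 lower, 2 higher with the stricter filter, 1 lower with the larger pseudocount and 2 lower without ZT0 and ZT12. WT nuclear introns had 5 higher and 1 lower, 2 higher without ZT0 and ZT12 and 2 lower with the larger pseudocount. Leaving out each time point in turn gave 0 to 1 higher and 0 to 2 lower in total exons, 1 to 2 higher and 5 to 10 lower in nuclear exons, 0 to 3 higher and 0 to 3 lower in total introns, 0 to 1 higher and 1 to 9 lower in nuclear introns, and 0 to 1 higher and 1 to 9 lower in the ratio. Rhythmic members were then 10 to 15 in Nono-/- and 8 to 16 in WT total exons, and 3 to 14 in Nono-/- and 1 to 3 in WT nuclear introns. Members higher in the dark were 1 to 2 in Nono-/- and 2 to 5 in WT total exons (lower in WT, 0 to 1), and 5 to 13 in Nono-/- and 2 to 6 in WT nuclear introns (lower in WT, 0 to 2). Depth limits the low members most: the fewest reads in a total library were 11 in Nono-/- and 16 in WT for Sars2, and 19 in Nono-/- and 12 in WT for Pars2.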
